A study of Mus musculus with 2 samples.

Results

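The miR-30 5p family was measured in whole mouse femur after ovariectomy (OVX), in which the ovaries are taken out and most estrogen is lost, and after sham surgery. Its members were the array's rows for mmu-miR-30a-5p, mmu-miR-30b-5p, mmu-miR-30c-5p, mmu-miR-30d-5p and mmu-miR-30e-5p (mmu, for mouse, is left off below), found by exact name: 5 of the 1881 mouse miRNAs on the array, with 11 of its 4415 probes. The OVX sample and the sham sample were each 1 RNA pool of 4 female C57BL/6 mice aged 9 months, from femurs homogenised with bone and marrow together, and each pool was hybridised to 1 single-colour Agilent miRNA array. The labels do not state the time between surgery and collection. The mice of a pool cannot be told apart and there was no second pool, so no test was possible and no p-value is given. Here "higher" and "lower" describe these 2 arrays.

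MicroRNAs are short RNAs that lower the output of messenger RNAs, mainly through pairing of their seed, bases 2 to 8, with the target. The miR-30 5p members come from the 5′ arm of related hairpins and share a seed, so they are predicted to share many targets. In mouse bone precursor cells the family restrains osteoblast formation by targeting Runx2, the master transcription factor of osteoblasts, and Smad1, which carries bone morphogenetic protein signals. In mouse marrow stromal cells miR-30e targets Lrp6, a co-receptor for Wnt signals, and favours fat cells over osteoblasts, and in human adipose stem cells miR-30a and miR-30d favour fat-cell formation. Loss of estrogen is known to lower bone mass and to increase marrow fat. The arrays measured no messenger RNA, so the targets were not analysed here.

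RefSeq (build GRCm38.p6) had mature entries for 3 of the 5 members by name, miR-30a-5p, miR-30c-5p and miR-30e-5p. They are printed 5′ to 3′ with the seed in capitals, because the shared seed and the differing 3′ parts are what the probes have to separate. 1 non-member in the table, miR-384-5p, has the same bases 2 to 8, and miR-30f carries the same letters from its first base on. In miR-30f the capitals mark those letters and not its bases 2 to 8.
miR-30a-5p: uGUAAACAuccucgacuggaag
miR-30e-5p: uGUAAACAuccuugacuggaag
miR-30c-5p: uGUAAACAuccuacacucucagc
miR-384-5p: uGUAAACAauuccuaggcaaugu
miR-30f: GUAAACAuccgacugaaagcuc

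miR-30a-5p and miR-30e-5p differ by 1 substitution, C13U, with positions counted from 1 at the 5′ end and the base of miR-30a-5p given first. miR-30a-5p and miR-30c-5p share their first 12 bases and differ at 5 of the 22 positions that can be compared. The probes pair with the 3′ part of the miRNA, and the 17-base probes of miR-30a-5p and miR-30e-5p, printed 5′ to 3′ with the base that separates them in capitals, also differ by 1 substitution (G10A, probe of miR-30a-5p first).
miR-30a-5p probe: cttccagtcGaggatgt
miR-30e-5p probe: cttccagtcAaggatgt
Binding of miR-30a-5p to the probes of miR-30e-5p, and the reverse, was not tested, so the values of these members may not be fully separate.

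The files, on mouse build mm9, match the probes to pairs of neighbouring loci. The longest miR-30a-5p probe matches chr1:23279119-23279134, and the longest miR-30c-5p probe matches chr1:23298558-23298575 and, equally, chr4:120442160-120442177, since miR-30c-5p is made from the hairpins Mir30c-2 and Mir30c-1. The longest miR-30e-5p probe matches chr4:120445233-120445248. The longest miR-30b-5p and miR-30d-5p probes match chr15:68169003-68169018 and chr15:68172790-68172802. RefSeq (GRCm38) places Mir30c-1 and Mir30e inside Nfyc, which encodes a subunit of the transcription factor NF-Y, and places the other 4 hairpins inside no other gene.

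All 5 members were detected on both arrays. A probe was counted as present when over 50% of its spots were well above background by the scanner software's flag, and a miRNA when at least 1 of its probes was. On the OVX array 10 of the 11 member probes were present, and on the sham array 9. Of all miRNAs, 15.9% were present on the OVX array and 10.7% on the sham array. The member probes were dim to moderate. Their mean processed signals, in the scanner's brightness units after background subtraction, spanned 15.9 to 281.6 on the OVX array and 7.81 to 151.7 on the sham array. The negative control spots gave 1.36 ± 2.86 on the OVX array and 1.93 ± 2.81 on the sham array (SD between spots). Of the miRNAs listed for cells of a femur with marrow, all 4 red-cell and all 3 myeloid ones were present on both arrays. Of the skeletal muscle miRNAs, 0 of 4 were present on the OVX array and 2 of 4 on the sham array.

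Before scaling, every member probe was brighter on the OVX array, by 1.60-fold to 3.08-fold. The brightest probe of the family, the 18-base probe of miR-30c-5p, had spots of 246.6 at the lowest, 279.8 at the median and 318.7 at the highest on the OVX array, against 119.4, 157.6 and 171.9 on the sham array. The spots of these arrays did not overlap for this probe. Over the 11 probes, unscaled spots overlapped for 3, the 15-base probe of miR-30a-5p, the 16-base probe of miR-30b-5p and the 17-base probe of miR-30c-5p. Overlap was not counted over all probes of the array, so this count shows nothing particular to the members. Spots of 1 probe are repeats within an array and show nothing about the spread between mice.

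**Figure D1:**
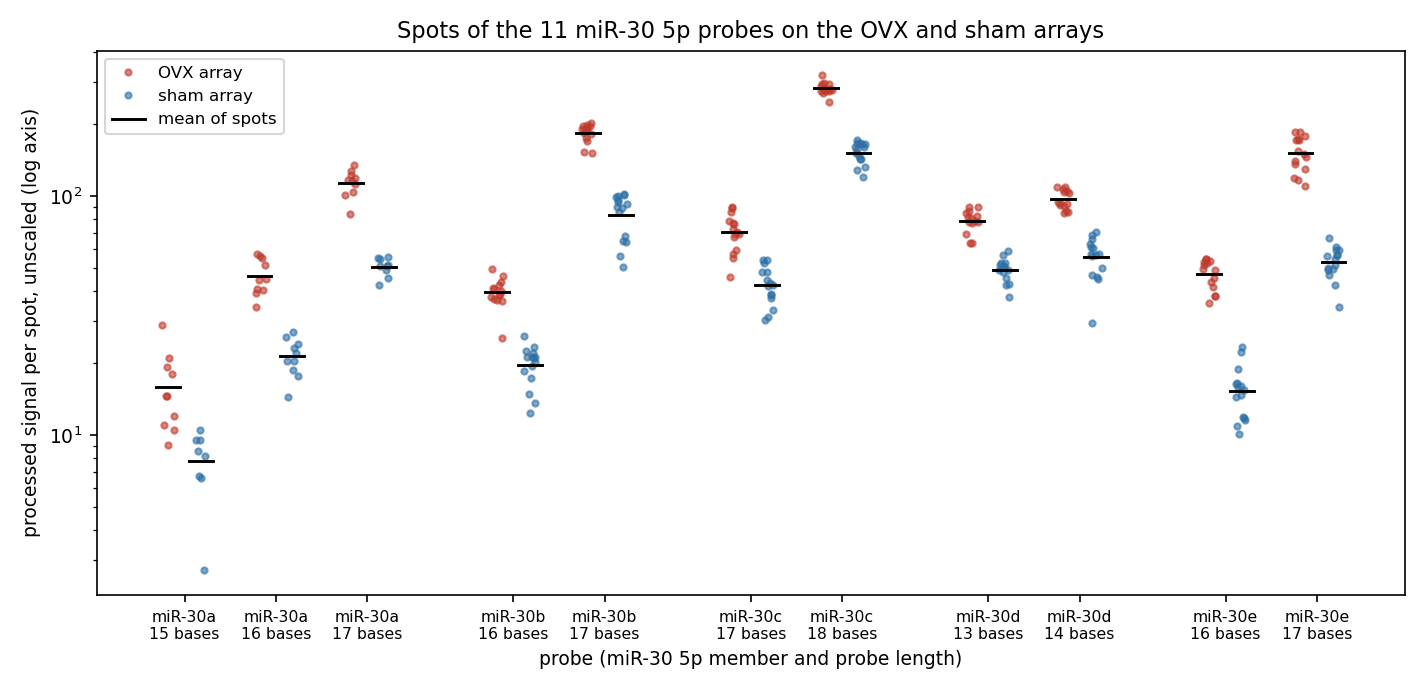
Processed signal of every usable spot (vertical log axis, unscaled) for the 11 miR-30 5p probes, named by member and probe length, with OVX spots left of sham spots and black bars for the spot means. Every OVX mean lies above its sham mean, and the longest probe of each member is its brightest.

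That brightness was shared by the arrays as a whole. At the 75th percentile of the 350 probes present on both arrays, used for scaling, the OVX array was 2.02-fold brighter than the sham array. The summed signal of the 9 member probes present on both arrays was 1062 on the OVX array and 526.9 on the sham array, also 2.02-fold. Each array was therefore divided by its own 75th percentile, and the difference of a miRNA is its log2 OVX value minus its log2 sham value, averaged over its probes present on both arrays. A difference of 0 means a miRNA kept pace with the bright probes of the array. After this scaling the spot ranges of the arrays overlapped for all 9 member probes present on both arrays. The share with such overlap among the 350 probes was not counted. The error given is the standard error from the spread between spots (spot SE), which leaves out mice, RNA preparation and hybridisation. In a bulk femur sample, fewer cells of a type and less of a miRNA per cell cannot be told apart.

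As a family, the members lay close to the bulk of the miRNAs. Their median difference was 0.06, or 1.04-fold, against -0.04 over all 197 miRNAs present on both arrays. With a 1.5-fold rule of size, 0 of the 5 members were higher, where 11.2% of the 197 miRNAs were, and 0 of the 5 were lower, where 14.7% were. All 5 members lay within 1.5-fold, as did 146 of the 197. Of the members, 3 were above 0 and 2 below, and over all 197 the counts were 93 and 104. All but miR-30e-5p lay between the quartiles of the 197, -0.36 and 0.28.

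miR-30e-5p, which in mouse marrow stromal cells has been tied to the choice of fat cell over osteoblast, had the highest difference of the family. Its 17-base probe had spots of 109.5 at the lowest, 150.2 at the median and 185.2 at the highest on the OVX array, against 34.3, 54.7 and 66.5 on the sham array. These unscaled ranges were apart, which includes the brightness of the whole OVX array. Relative to each array's 75th percentile the spots spanned 0.420 to 0.710 on the OVX array and 0.265 to 0.515 on the sham array, so they overlapped. The scaled level was -0.79 on the OVX array and -1.29 on the sham array, a difference of 0.50 (spot SE 0.08), or 1.41-fold. Of the 197 miRNAs, 27 had a higher difference. This value rests on 1 probe, since the 16-base probe was present on the OVX array alone, with 14 of 14 spots well above background there and 3 of 15 on the sham array. The 16-base probe averaged 47.2 ± 6.70 on the OVX array and 15.3 ± 3.91 on the sham array (SD, n = 14 and 15 spots). Set against the lowest scaled level of a present probe on the sham array, its lower bound was 1.31-fold. The 16-base probe was kept through the OVX array alone, where it is brighter, so this bound is no separate support for the 17-base value.

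miR-30a-5p, reported to restrain osteoblasts in mouse and to favour fat cells in human, differed by 0.13 (spot SE 0.07), or 1.10-fold. The 17-base probe had spots of 84.2 at the lowest, 115.8 at the median and 134.2 at the highest on the OVX array, against 42.4, 51.0 and 55.3 on the sham array. These ranges overlapped once scaled, and the probe stood at 0.16 (spot SE 0.07). The 16-base probe gave 0.11 (spot SE 0.11), within its spot error of 0. The 15-base probe was not well above background on either array.

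The difference between miR-30e-5p and miR-30a-5p is of interest because they are 1 base apart and probed at the same positions. miR-30e-5p exceeded miR-30a-5p by 0.37 on the log2 scale (spot SE 0.11), or 1.29-fold, a gap that the scaling constants cannot change. Other settings did move it, to 0.28 with the trend with GC content removed, 0.19 in the authors' deposited table and 1.505 with the gene-level signal. The gene-level gap uses a miR-30a-5p signal on the sham array, 24.3, that departed from the sum of its probes' totals, 11.3.

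miR-30b-5p, which is also reported to restrain osteoblasts by way of Runx2, stood at 0.06 (spot SE 0.06), or 1.04-fold. Its 17-base probe had spots of 151.1 at the lowest, 189.8 at the median and 202.6 at the highest on the OVX array, against 50.6, 90.0 and 101.7 on the sham array. The probes gave 0.12 (17 bases) and 0.00088 (16 bases), both within 2 spot SE of 0.

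miR-30c-5p, the member made from more than 1 hairpin, was lower in OVX by this scaling, at -0.20 (spot SE 0.05), or 0.872-fold. Its 18-base probe, whose spots are given above, differed by -0.12 (spot SE 0.04) and its 17-base probe by -0.28 (spot SE 0.09). Both probes were below 0.

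miR-30d-5p, reported to favour fat cells in human adipose stem cells, was the lowest of the family, at -0.27 (spot SE 0.05), or 0.828-fold. Its 14-base probe had spots of 84.4 at the lowest, 94.0 at the median and 108.7 at the highest on the OVX array, against 29.4, 56.9 and 70.8 on the sham array. The 14-base probe differed by -0.21 (spot SE 0.08) and the 13-base probe by -0.33 (spot SE 0.06). The unscaled spots did not overlap and were brighter on the OVX array, but less so than the array as a whole, so the scaled difference is below 0.

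**Figure D2:**
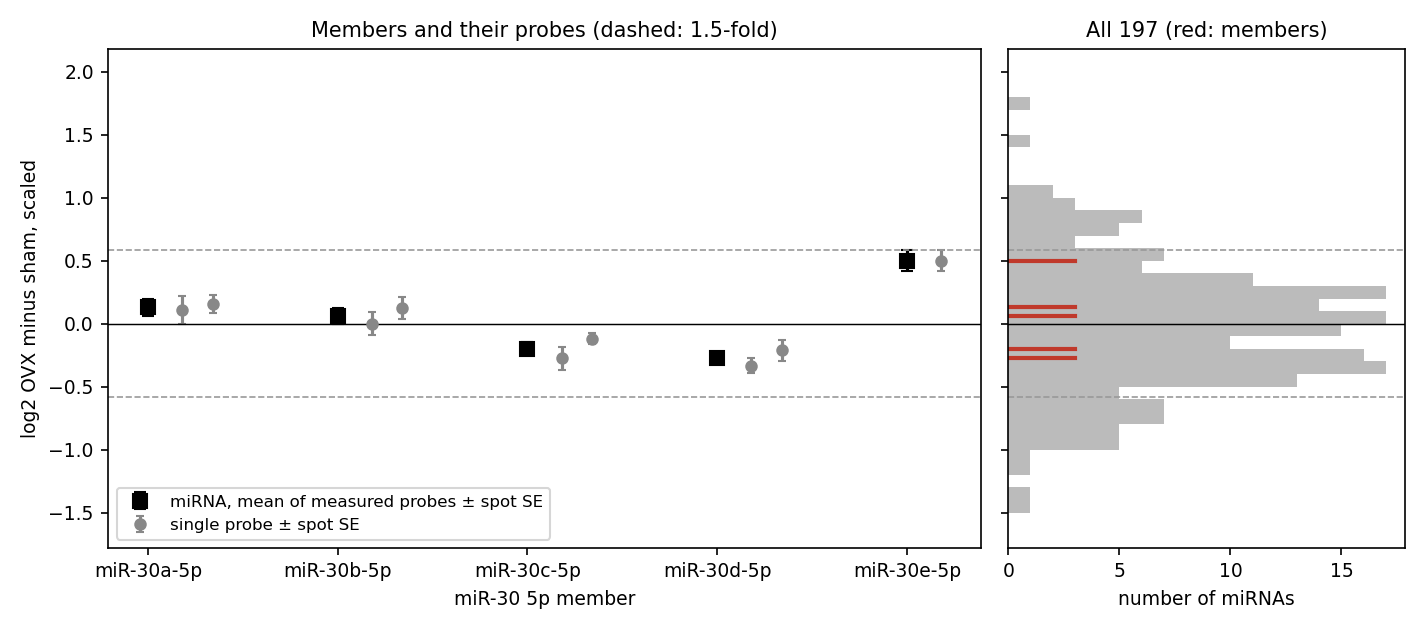
Log2 OVX minus sham after scaling (vertical axis) for each member (squares) and each probe present on both arrays (circles), with bars of 1 spot SE, beside a histogram of all 197 miRNAs in which red ticks mark the members. The members run from -0.27 (miR-30d-5p) to 0.50 (miR-30e-5p), all inside the dashed 1.5-fold lines.

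Within the family the differences spread over 0.77 on the log2 scale. Of the 10 pairs of members, 8 differed by more than 2 spot SE, and the largest gap was 1.71-fold, between miR-30e-5p and miR-30d-5p (0.77, spot SE 0.10; 0.48 with normexp background correction). The exceptions were miR-30a-5p over miR-30b-5p (0.07, spot SE 0.09) and miR-30c-5p over miR-30d-5p (0.07, spot SE 0.07). The same share over pairs of all 197 miRNAs was not calculated. Differences of the 197 had an SD of 0.52 against a median spot SE of 0.05, so 8 of 10 is not read as a trait of the family. Neighbouring loci did not give equal values. miR-30e-5p exceeded miR-30c-5p, with which it shares Nfyc, by 0.70 (spot SE 0.10), although miR-30c-5p also comes from chromosome 1. miR-30b-5p exceeded miR-30d-5p, its neighbour on chromosome 15, by 0.33 (spot SE 0.08). Mean probe GC content was 47.1% for miR-30e-5p, 48.5% for miR-30b-5p, 51.5% for miR-30c-5p, 54.6% for miR-30a-5p and 66.8% for miR-30d-5p. The members did not follow GC content in order, as miR-30a-5p had a higher difference than miR-30b-5p and miR-30c-5p. Over the 197 miRNAs the difference was lower at higher probe GC content (Spearman's rho -0.32, a description in which the points share both arrays). Once that trend was removed the members stood at 0.40 (miR-30e-5p), 0.12 (miR-30a-5p), -0.02 (miR-30b-5p), -0.14 (miR-30d-5p) and -0.24 (miR-30c-5p).

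Signal also depended on the probe. In each of the 6 steps from a shorter to a longer probe of a member the longer was brighter, by 1.23-fold to 4.63-fold on the OVX array and 1.13-fold to 4.25-fold on the sham array. Levels of different members were therefore not ranked against each other.

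Of the 6 miR-30 3p miRNAs, from the opposite arms of the same hairpins, 1 was present on each array, miR-30c-1-3p, where 15.9% of all miRNAs were present on the OVX array and 10.7% on the sham array. Its 19-base probe averaged 42.3 ± 6.23 on the OVX array and 20.9 ± 3.68 on the sham array (SD, n = 7 spots each), a scaled difference of 0.01 (spot SE 0.13). For its other 3 probes, present in OVX alone, the bounds were under 1, so no fold is given. miR-30a-3p, miR-30b-3p, miR-30c-2-3p, miR-30d-3p and miR-30e-3p were not well above background on either array. The highest signal among their probes was 16.9 on the OVX array, from the 18-base probe of miR-30e-3p, against 4.10 on the sham array. Its spots did not overlap between the arrays, with 11.4 the lowest on the OVX array and 9.53 the highest on the sham array, but 1 of 14 and 0 of 15 were well above background, so no fold is given. miR-384-5p, which shares the seed, and miR-30f were not well above background on either array.

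The direction of every member's difference except that of miR-30e-5p, which was above 0 in all 15 alternative settings, turned on how the arrays were scaled. Without scaling all 5 members were above 0, from 0.74 (miR-30d-5p) to 1.51 (miR-30e-5p), and the median of all miRNAs was 0.97. With scaling to 27 control probes all 5 were also above 0, from 0.41 to 1.18, and the median of all was 0.64. With scaling to the array median only miR-30e-5p (0.32) was above 0, and the median of all was -0.23. miR-30e-5p was likewise the only member above 0 with quantile normalization (0.29) and with normexp background correction (0.13). A change of scaling constant moves every miRNA alike, so with the reported, unscaled, control-probe and array-median values the members stood at the same distance from the median of all miRNAs, 0.54 for miR-30e-5p, 0.17 for miR-30a-5p, 0.10 for miR-30b-5p, -0.16 for miR-30c-5p and -0.23 for miR-30d-5p. miR-30e-5p was the highest member in each of the 15 settings tried, and miR-30d-5p the lowest in 13, the exceptions being the removal of the GC trend, where miR-30c-5p was lowest, and the scanner's gene-level signal, where miR-30a-5p was at -0.64. That signal for miR-30a-5p on the sham array, 24.3, departed from the sum of its own probes' totals, 11.3, while it matched the sum for the other members. In the authors' deposited table, read with its names moved by 1 row, miR-30e-5p had log2 values of 5.01 (OVX) and 4.58 (sham) and miR-30a-5p 4.27 (OVX) and 4.03 (sham), both higher in OVX. The other members were lower in OVX in the authors' deposited table: miR-30b-5p had 5.13 (OVX) and 5.25 (sham), miR-30c-5p 5.83 (OVX) and 6.08 (sham), and miR-30d-5p 4.87 (OVX) and 5.34 (sham).

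**Figure D3:**
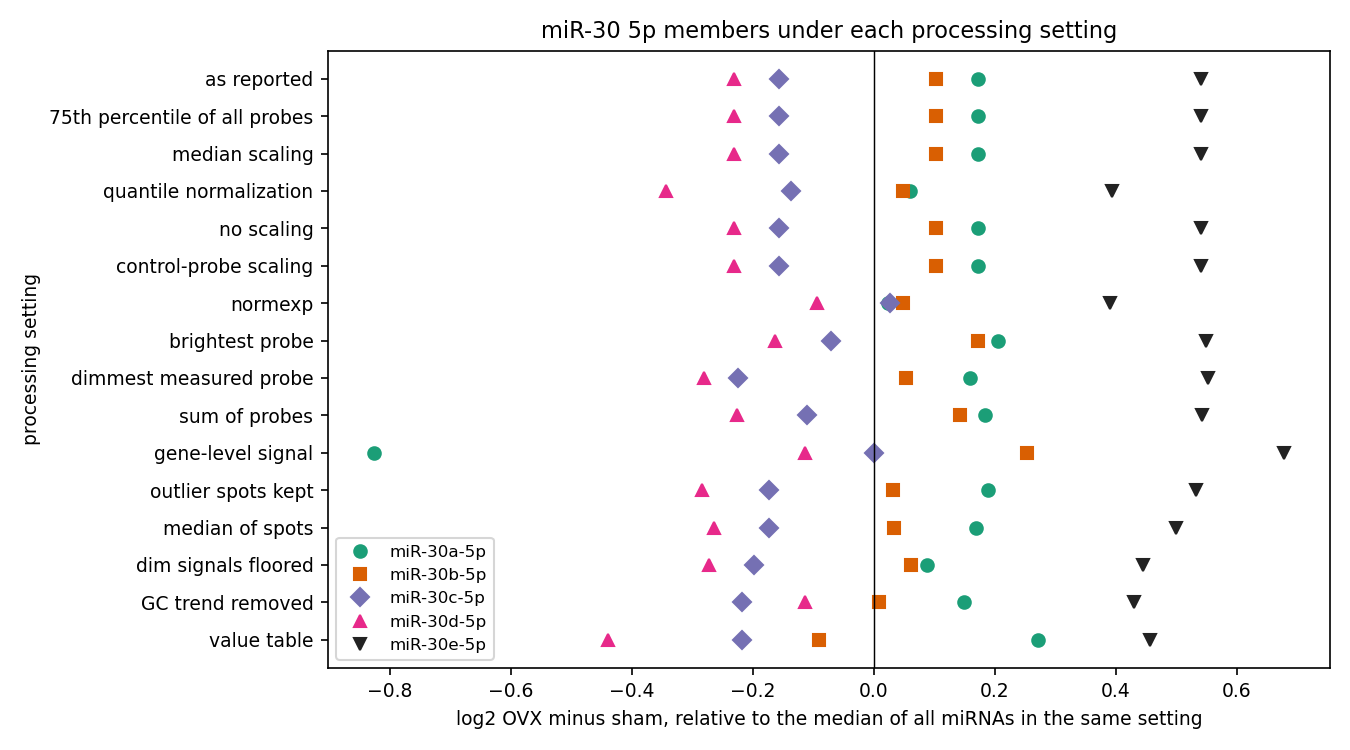
Log2 OVX minus sham of each member minus the median of all miRNAs in the same processing setting (horizontal axis), with 1 row per setting and 1 marker shape per member. miR-30e-5p is the rightmost marker in every row, and miR-30a-5p is the next except with normexp (0.02), where miR-30b-5p and miR-30c-5p lie above it, and with the gene-level signal (-0.83), where it is the leftmost.

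Other miRNAs reported to act in the same choice of cell fate lay on either side of 0, as the family did. Of 20 others listed as restraining osteoblasts, 19 were on the array and 7 present on both arrays. Of these, 0 were at least 1.5-fold higher and 1 at least 1.5-fold lower in OVX, with a median of -0.34. Over all 197 miRNAs the shares were 11.2% higher and 14.7% lower. They were miR-34a-5p (0.39), miR-125b-5p (0.34), miR-23a-3p (-0.33), miR-27a-3p (-0.34), miR-24-3p (-0.37), miR-103-3p (-0.42) and miR-221-3p (-0.84, or 0.558-fold). Of the 13 listed as favouring osteoblasts, 9 were present on both arrays, 2 of them higher (miR-29c-3p at 0.90 and miR-29b-3p at 0.89) and 2 lower (miR-2861 at -0.71 and miR-378a-3p at -0.69), with a median of 0.13. The 3 highest also took in miR-29a-3p (0.39), and the 3 lowest miR-15b-5p (-0.34).

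Of the 12 other miRNAs listed as favouring fat cells, 7 were present on both arrays, with a median of 0.04. miR-26b-5p (1.04) and miR-21a-5p (0.90) were at least 1.5-fold higher and miR-378a-3p was lower. The others were miR-20a-5p (0.24), miR-148a-3p (0.04), miR-103-3p and miR-107-3p (-0.43). Of the 10 listed as restraining fat cells, 4 were present on both arrays and 0 passed the rule in either direction: miR-130a-3p (0.25), miR-130b-3p (-0.24), miR-27b-3p (-0.25) and miR-27a-3p, with a median of -0.25. Over all 197 miRNAs 11.2% were at least 1.5-fold higher and 14.7% at least 1.5-fold lower, and the median was -0.04. These lists share members, among them miR-103-3p, miR-27a-3p and miR-378a-3p. The sign of a list's median depended on the setting. The fat-favouring median turned to -0.13 with the GC trend removed and -0.15 with median scaling, and the osteoblast-favouring median to -0.06 with median scaling. Median scaling moves every miRNA alike, and with it the median of all was -0.23, below both list medians. With the GC trend removed the median of all was -0.03. Without scaling all 4 list medians were above 0, from 0.67 to 1.14, and the median of all was 0.97.

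**Figure D4:**
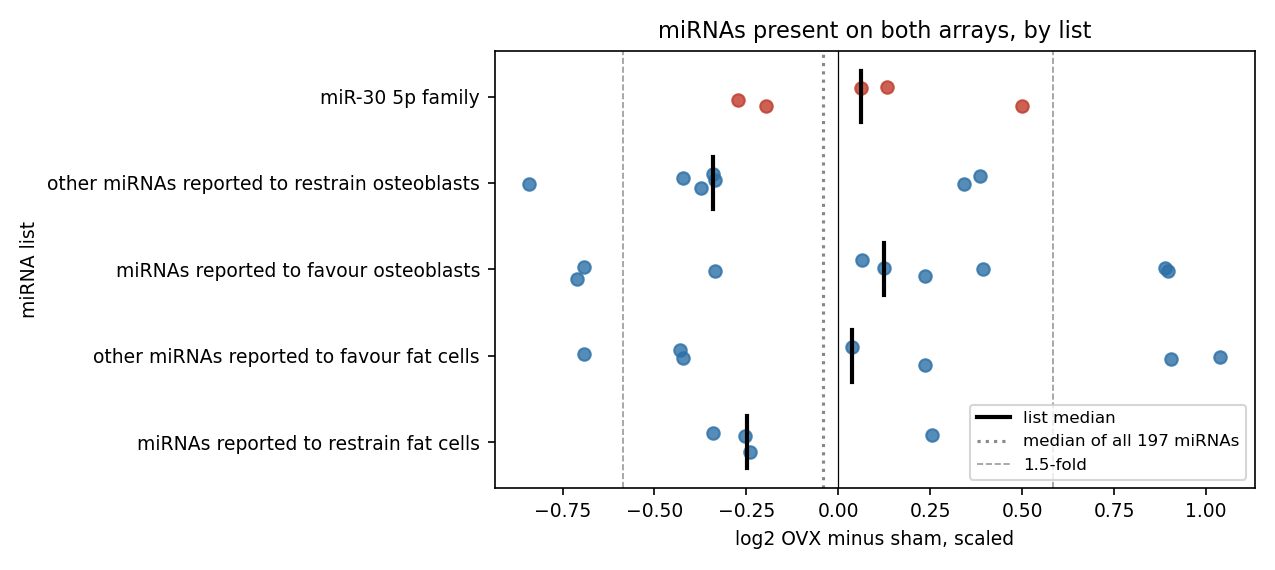
Log2 OVX minus sham after scaling (horizontal axis) of each miRNA present on both arrays, 1 point per miRNA, for the miR-30 5p family (red) and 4 lists of bone and fat miRNAs (blue), with black bars for list medians. The family's points stay inside the dashed 1.5-fold lines, and the medians of the 4 lists lie between -0.34 and 0.13.

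Markers of blood cells also differed after scaling. The 4 red-cell miRNAs had a median of 0.56, with miR-144-5p at 0.97, miR-144-3p at 0.85, miR-451a at 0.27 and miR-486a-5p at -0.71, and a summed unscaled signal of 16518 on the OVX array and 6821 on the sham array. The 3 miRNAs listed as myeloid had a median of 0.63 and summed to 13720 on the OVX array and 9245 on the sham array. Both arms of miR-142a were above 0, miR-142a-5p at 1.08 and miR-142a-3p at 0.63, but miR-223-3p, the granulocyte miRNA, was at -0.63. This median is therefore not read as a change in myeloid cells. The 4 lymphoid miRNAs had a median of 0.01, with miR-150-5p at 1.43, miR-342-3p at 0.22, miR-181a-5p at -0.21 and miR-181b-5p at -0.36, and summed to 911.5 on the OVX array and 356.5 on the sham array. All these sums are unscaled and hold the brightness of the whole OVX array, where the sum over all 197 miRNAs was 2.03-fold. The OVX over sham ratio was 2.42 for red-cell, 2.56 for lymphoid and 1.48 for myeloid sums. Relative to the array the myeloid sum was thus lower in OVX, unlike the myeloid median. Among the others, miR-126a-3p of endothelium stood at 0.77, and cartilage miR-140-5p at 0.17 and miR-140-3p at -0.49. Of the muscle markers, miR-206-3p and miR-1a-3p were not well above background on either array, and miR-133a-3p and miR-133b-3p were present on the sham array alone. With the GC trend removed the red-cell median was 0.32 and the myeloid median 0.40. The part of these cell types in the values of the miR-30 members was not tested.

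Among non-members with at least 2 measured probes, those whose difference was nearest to the family's median of 0.06 were miR-26a-5p (0.06, spot SE 0.05), let-7a-5p (0.06, spot SE 0.03) and miR-6929-3p (0.07, spot SE 0.04). Likeness here is the gap between log2 differences over 2 arrays, and 17 of the 192 non-members lay within the members' median spot SE of it, so it singles out no miRNA.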

How the data were processed

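The data are 1 OVX and 1 sham array. The software, Agilent Feature Extraction, is version 10.7.1.1 per the file headers and 11.0.1.1 per the submitters' processing notes. The deposited intensities are processed signals per spot, background-subtracted and not normalized between arrays, per the file headers. The deposited log2 value table is the authors' own, and how it was normalized and centred is not given in the sources used here. The column medians are -3.32 (OVX) and -3.18 (sham), which are its floors. Against the gene-level signal its names as printed gave Spearman's rho of 0.04 (OVX) and 0.02 (sham), and moved by 1 row 0.994 (OVX) and 0.996 (sham), so it served as an alternative only.

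Controls and outlier-flagged spots were dropped, outliers being 1635 of 56430 miRNA spots on the OVX array and 1554 on the sham array, and for the members 6 of 150 on the OVX array and 3 of 150 on the sham array. No miRNA spot was saturated. Each probe's spots were averaged, and the log2 mean was scaled by the 75th percentile over probes present on both arrays. The number of arrays limits the precision. Members and lists were chosen with earlier results of these data known. Named were the 5 members with every probe, their opposite arms, miRNAs sharing the seed, list members present on both arrays (all if at most 8, otherwise the 3 highest and 3 lowest) and the 3 nearest in difference; miR-30f and the gene-level departure were added after their values were seen. The calculation was tested on simulated spots. Python 3.11.15 with pandas 2.3.3, and R 4.3.3 with limma 3.58.1 for normexp (offset 50), were used.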

Additional observations from a re-analysis of the deposited data

How the results depend on the processing

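No paired analysis was possible because each group is 1 array. The median difference of the members, 0.06 as reported, was 1.07 unscaled, 0.74 scaled to control probes, 0.21 scaled to the 75th percentile over every probe, -0.12 scaled to the array median, -0.23 by normexp, 0.19 from gene-level signals, -0.066 from spot medians, -0.12 in the value table, and -0.068 if miR-30a-5p or miR-30e-5p was left out. Minus the median of all miRNAs, the members' median lay between -0.09 (value table) and 0.17 (brightest probe of each miRNA) over the reported setting and the 15 alternatives. The members at least 1.5-fold higher, 0 as reported, numbered 5 unscaled, 3 scaled to control probes, 1 at the percentile over every probe and 1 from gene-level signals, where 1 was also at least 1.5-fold lower. Over all miRNAs the 22 higher and 29 lower became 155 and 0 unscaled, 108 and 2 by control probes, and 31 and 17 at the percentile over every probe. They became 13 and 46 by the array median, 50 and 22 from gene-level signals and 7 and 23 by normexp. The normexp offset draws the unscaled differences of dim probes towards 0, and after scaling the normexp median of all was -0.26. With dim signals floored the counts were 20 and 12, but of all 1881 miRNAs rather than the 197. Detection of the 5 members did not depend on the share of spots required, as the counts of members stayed at 5 on both arrays with any spot or all spots. The member probes present on the sham array fell from 9 to 7 when all spots were required. Signal over background limits the 16-base miR-30e-5p and 15-base miR-30a-5p probes. It also limits the 16-base probes of miR-30a-5p and miR-30b-5p, which enter the values of those members. Their sham signals were 21.4 and 19.6, where the lowest of a present probe was 17.8. The causes were not tested.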
